A study of Mus musculus with 9 samples.

Results

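The 76 genes described here carry symbols given to proteins of the mitochondrial ribosome, Mrpl for its large subunit and Mrps for its small subunit. Mrps18a and Mrps30 belong to the large subunit and Mrps36 to neither, as described below, but all are counted among the 76. The 76 genes were chosen by name out of 18193 genes represented on the array. Every gene whose symbol in the platform annotation is Mrpl or Mrps followed by a digit was taken. Each gene was read from its probe set (the group of short array probes summarised as 1 signal) with the highest mean log2 signal over the 9 arrays. All 76 passed the filter on dim genes that left 12347 genes for testing. A further 4 probe sets whose annotation joins such a symbol to another gene were left out.

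The mitochondrial ribosome translates the few messenger RNAs that the mitochondrial genome encodes, all of them for core subunits of the respiratory chain and ATP synthase. Its ribosomal RNA comes from mitochondrial DNA, while every protein is encoded in the nucleus, made in the cytosol and imported. It descends from a bacterial ribosome, and beside counterparts of bacterial proteins it holds many proteins that bacteria lack. Nuclear-encoded mitochondrial genes often carry promoter sites for NRF1, for the ETS factor GABP and for YY1.

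The cells were granulocyte-macrophage progenitors (GMPs), the bone marrow cells that give rise to neutrophils and monocytes, sorted as positive for the reporter EYFP and measured on 9 Affymetrix mouse expression arrays, 3 per genotype. All 3 groups carried Cebpa-Cre, a Cre recombinase driven from the Cebpa locus that acts in the myeloid lineage, and R26-LSL-Eyfp, a reporter that Cre switches on, so the controls were Cre-bearing too. The groups were wild type for Dicer1 (Dicer wt), heterozygous (Dicer -/wt) and null (Dicer fl/fl), where the floxed alleles are removed by the same Cre. Fetal liver cells of embryonic day 13.5 had been transplanted into C57BL/6 recipients 6 to 8 weeks old that had received 8.5 Gy, and marrow was taken 6 to 10 weeks later. Cells of a fetal liver were typically shared between recipients and the labels do not tie arrays to donors, so the p-values reflect array-to-array spread that may lie partly within a donor. Dicer1 encodes the ribonuclease that produces mature microRNAs.

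Dicer1 had a mean signal of 232 ± 11.1 (SD, n = 3) on wild-type, 185 ± 16.1 on heterozygous and 105 ± 9.46 on null arrays, and its log2 difference between null and wild type was -1.07 (SE 0.11, adjusted p = 1.88e-05). Every sample is labelled female, yet 8 arrays had Eif2s3y (Y-linked) signals of 622 to 859 and Xist signals of 16.4 to 30.2, while wild-type replicate 2 had 1.13 and 2610. The main counts of called genes, the overlap of arrays, the order of means and the summed signals are also given without it, some of them added after the data were seen. All 10 GMP markers examined (among them Mpo, Elane, Prtn3 and Ctsg) were present, with summed signals of 24483 to 27300 on wild-type, 25049 to 29135 on heterozygous and 25285 to 27306 on null arrays. Of these 10, Fcgr3 was higher in null than in wild-type cells (log2 difference 0.37, adjusted p = 0.00959), and Csf3r, the G-CSF receptor, was lower than in wild-type (-0.38, adjusted p = 0.0182) and heterozygous cells (-0.40, adjusted p = 0.0144). B-cell and T- and NK-cell markers stayed below the filter on average, at summed signals of at most 26.1 on any array. Markers of maturing neutrophils (3 of 4 listed) summed to 536 to 1327 on wild-type, 146 to 276 on heterozygous and 138 to 496 on null arrays. Erythroid markers (2 of 4 listed) summed to 29.9 to 130 on wild-type, 60.8 to 102 on heterozygous and 38.6 to 62.6 on null arrays, and megakaryocyte markers (3) to 93.0 to 258, 65.4 to 102 and 69.6 to 111. Wild-type replicate 2 was the array with the highest sum in both. Macrophage markers (3) summed to 78.7 to 128 on wild-type, 153 to 176 on heterozygous and 87.4 to 129 on null arrays, so heterozygous arrays lay above the others, although no gene of these 3 lists was called. The part of such cells in the results was not tested. The values are MAS5 signals that were scaled to a common average before deposit, so a difference is relative to the bulk of transcripts, and less RNA per cell cannot be told apart from fewer cells of a type.

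Promoter sequence is shown first for 6 of these genes, 4 that were clearly lower and both that were higher in null cells, because they move with or against the group and differ in the motifs just before their start. Each line gives the 120 bases before the annotated transcription start, 5′ to 3′ on the gene's strand, from RefSeq on GRCm38.p6. Capitals mark a match to the NRF1 core GCATGCG, the ETS core CCGGAAG or the YY1 core AAGATGG, each read on both strands. The genes were picked after their values and letters had been seen. Beyond the first, lower genes were shown only if these bases held a match, while the higher genes were shown either way. The share of lines with a match therefore carries no information.
Mrpl24, chr3:87919424-87919543, plus strand, no match: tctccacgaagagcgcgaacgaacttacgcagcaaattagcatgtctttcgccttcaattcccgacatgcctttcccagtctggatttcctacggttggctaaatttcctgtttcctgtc
Mrps26, chr2:130563637-130563756, plus strand, ETS core reversed: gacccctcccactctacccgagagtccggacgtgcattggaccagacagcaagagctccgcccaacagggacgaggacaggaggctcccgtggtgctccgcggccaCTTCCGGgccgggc
Mrpl33, chr5:31613831-31613950, plus strand, NRF1 core reversed: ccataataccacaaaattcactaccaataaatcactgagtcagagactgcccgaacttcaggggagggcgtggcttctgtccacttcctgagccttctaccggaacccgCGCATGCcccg
Mrps11, chr7:78783011-78783130, plus strand, YY1 core reversed: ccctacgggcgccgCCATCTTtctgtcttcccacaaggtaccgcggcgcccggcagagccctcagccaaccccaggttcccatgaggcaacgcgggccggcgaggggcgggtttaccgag
Mrps22, chr9:98601680-98601799, minus strand, ETS core forward: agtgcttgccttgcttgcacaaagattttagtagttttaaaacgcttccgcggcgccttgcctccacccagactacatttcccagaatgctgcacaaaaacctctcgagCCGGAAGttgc
Mrps31, chr8:22411220-22411339, plus strand, no match: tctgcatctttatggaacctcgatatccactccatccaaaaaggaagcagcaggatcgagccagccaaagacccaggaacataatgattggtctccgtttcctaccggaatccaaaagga

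A promoter was listed for 67 of the 76 genes, and 27 of those held at least 1 of the 3 motifs in the 250 bases before the start. The ETS core was found in 17 of 67 (25.4%), against 15.3% of the 9974 tested genes and 7.83% of all 27025 genes with a listed promoter. The NRF1 core was found in 8 (11.9%, against 6.11% and 3.43%) and the YY1 core in 6 (8.96%, against 5.26% and 5.18%). The forward and reversed NRF1 cores share 6 letters, and a gene was counted once per motif. In the 6 lines above, Mrps26, lower in null cells, and Mrps22, higher in null cells, both hold an ETS core close to the start. Among the 31 genes with a promoter listed that were lower in null cells in either comparison, 29.0% held the ETS core, and among the other 36, 22.2% did. The NRF1 core was in 9.68% and 13.9% of these, and the YY1 core in 9.68% and 8.33%. With the 50 bases after the start included, the ETS shares were 48.4% and 27.8%, against 19.5% of the tested genes. The NRF1 shares there were 9.68% and 13.9%, against 7.17%, and the YY1 shares 19.35% and 19.44%, against 8.46%. No difference between these shares was tested. A match describes letters only.

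Null cells had lower mitoribosomal protein signals than wild-type cells for most of the genes, and the differences were small. Of the 76, 19 fell and 2 rose (limma, Benjamini-Hochberg adjusted p under 0.05). The 19 make up 25%, against 8.09% of all tested genes called lower, and the 2 make up 2.63%, against 7.6% called higher. The log2 difference was negative for 66 genes and positive for 10, with a median of -0.22 (-0.04 over all genes tested), which is a fall of 13.9% in signal at the median. It ranged from -0.67 to 0.34. For 36 genes (47.4%) all 3 null values lay below all 3 wild-type values, against 19% of all tested genes. Without wild-type replicate 2, null values lay below both remaining wild-type values for 36 genes, against 23.7% of all tested genes. Among the 2136 tested genes whose mean level lay between the quartiles of the members' levels, 287 were lower (13.4%) and 296 higher (13.9%), with a median of -0.02. These shares at the members' levels were above those of all tested genes.

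**Figure D1:**
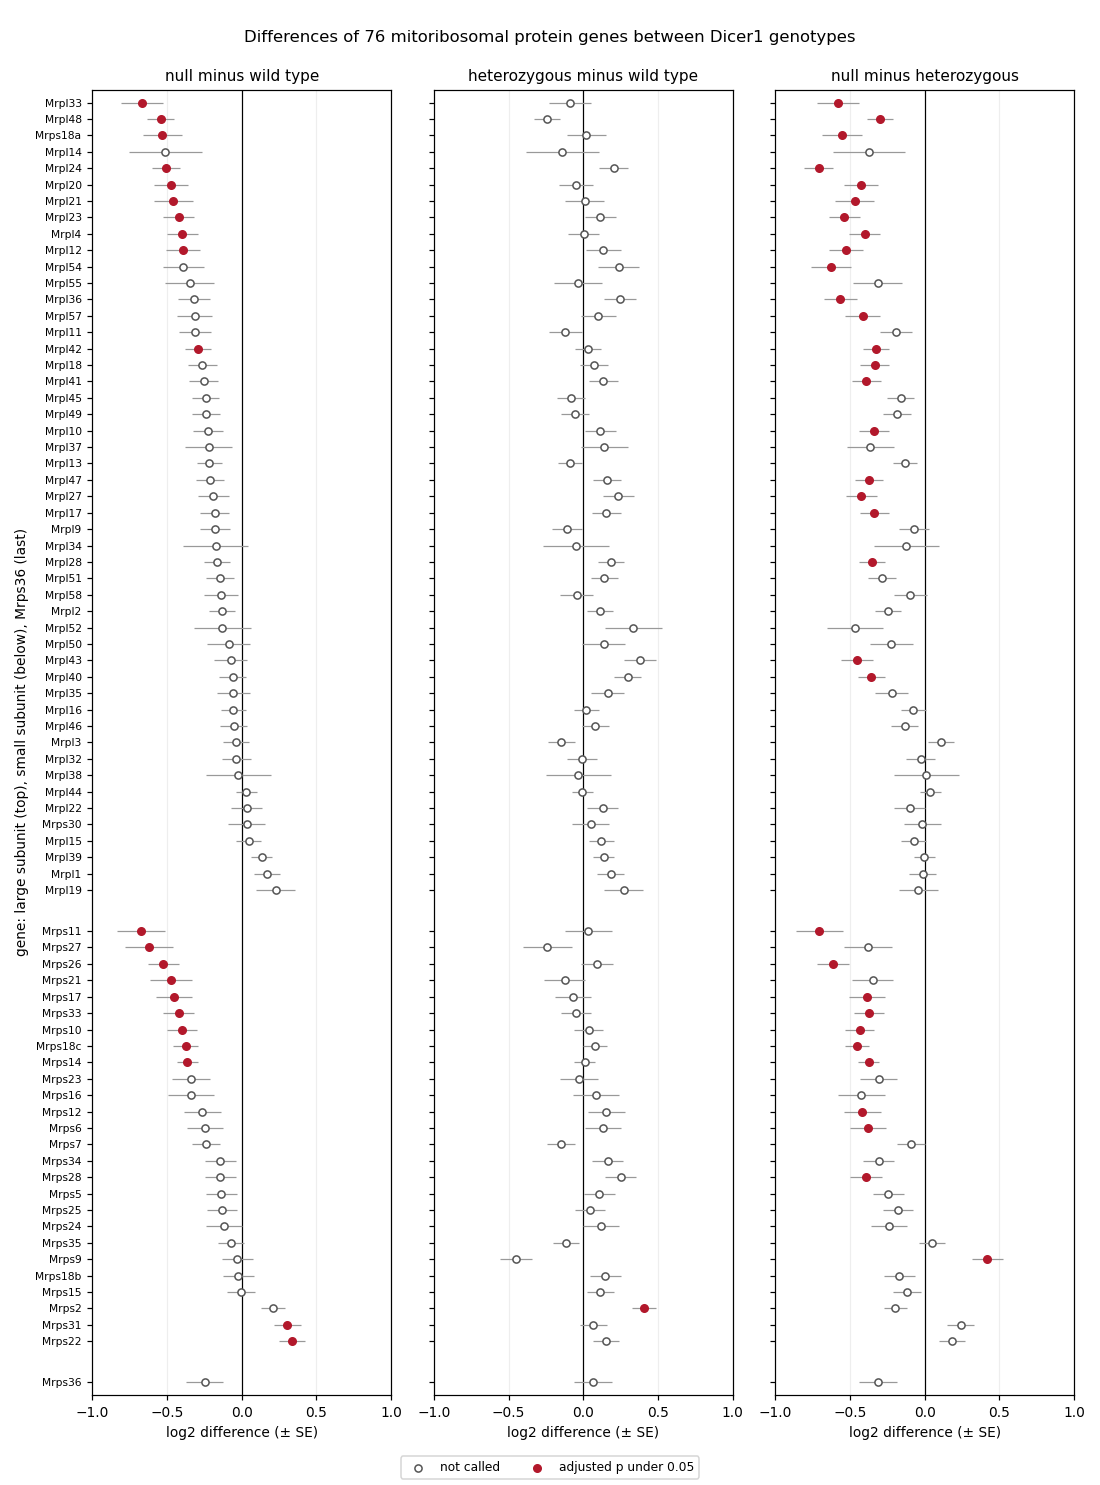
Log2 difference in signal (horizontal axis, with the standard error as a bar) for each of the 76 genes, in null against wild type, heterozygous against wild type and null against heterozygous; filled points passed an adjusted p of 0.05. The left and right panels lie mostly left of 0 (66 and 69 of 76 genes), while in the middle panel 52 of 76 lie right of 0.

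Among the large-subunit genes, Mrpl48 and Mrpl24 separated most clearly. Mrpl48, which encodes a protein with no bacterial counterpart, had signals of 428, 471 and 455 on the wild-type arrays, 396, 375 and 368 on the heterozygous arrays and 295, 336 and 288 on the null arrays. The 3 genotypes did not overlap, and the null arrays were lowest. The log2 difference between null and wild type was -0.54 (SE 0.09, adjusted p = 0.00107). Another of its 3 probe sets gave -0.67 and was also called.

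Mrpl24, the counterpart of the bacterial protein of the same number, read 521, 623 and 614 in wild-type cells, 694, 692 and 639 in heterozygous cells and 381, 452 and 393 in null cells. Heterozygous values were all above and null values all below the wild-type values. The difference between null and wild type was -0.51 (SE 0.10, adjusted p = 0.0028). That between null and heterozygous was -0.71 (SE 0.10, adjusted p = 0.00031).

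Mrpl33, a small protein of the large subunit with a bacterial counterpart, read 319, 336 and 469 in wild-type cells, 370, 348 and 323 in heterozygous cells and 263, 235 and 191 in null cells. The null values lay below all 6 others, and wild-type replicate 3 stood high. The difference was -0.67 (SE 0.14, adjusted p = 0.00563) against wild type.

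Mrpl12 encodes the stalk protein that recruits translation factors to the ribosome, and it has also been described as a partner of the mitochondrial RNA polymerase. Its signals were 434, 505 and 397 in wild-type cells, 581, 456 and 437 in heterozygous cells and 324, 327 and 353 in null cells. The null arrays lay below all the others and close together. It fell by 0.39 on the log2 scale against wild type (SE 0.12, adjusted p = 0.0335) and by 0.53 against heterozygous cells (SE 0.12, adjusted p = 0.00784).

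The other 6 large-subunit genes that fell against wild type were Mrpl20 (log2 difference -0.47), Mrpl21 (-0.46), Mrpl23 (-0.42), Mrpl4 (-0.40), Mrpl42 (-0.29) and Mrps18a (-0.53), with adjusted p from 0.0109 to 0.0327. Mrpl23 and Mrpl4 are counterparts of bacterial proteins that lie along the exit tunnel of the nascent chain. Mrps18a carries a small-subunit name but sits in the large subunit in structures of the mammalian ribosome. In all, 10 of 49 large-subunit genes were lower (20.4%, against 8.09% of all tested genes) and 0 higher. The median log2 difference was -0.19. At an unadjusted p under 0.05, 21 passed (42.9%), each of them lower. Of all tested genes 16.1% were lower and 12.8% higher at that threshold. Among tested genes with levels between the members' quartiles, 22.5% were lower and 20.7% higher.

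Mrps14, the counterpart of a small-subunit head protein of bacteria, had signals of 1380, 1326 and 1285 in wild-type cells, 1404, 1315 and 1301 in heterozygous cells and 1003, 1019 and 1070 in null cells. The null arrays lay below the others without overlap, while wild-type and heterozygous arrays overlapped. The difference between null and wild type was -0.36 (SE 0.07, adjusted p = 0.00333). The gene's second probe set, with a mean signal of 272, gave 0.00, so the probe sets of Mrps14 disagreed.

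Mrps26, which has no bacterial counterpart, read 406, 474 and 403 in wild-type cells, 498, 427 and 442 in heterozygous cells and 264, 333 and 286 in null cells. The null values were again below all others. The difference was -0.52 (SE 0.11, adjusted p = 0.00443).

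Mrps18c, the counterpart of the bacterial small-subunit protein of that number, read 646, 604 and 600 in wild-type cells, 702, 596 and 660 in heterozygous cells and 485, 471 and 462 in null cells. Null arrays lay in a narrow band below the rest. The difference was -0.38 (SE 0.08, adjusted p = 0.0072).

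Mrps11, whose bacterial counterpart lies on the small-subunit platform, was dim at 78.4, 69.4 and 57.6 in wild-type cells, 78.3, 74.7 and 58.0 in heterozygous cells and 31.2, 39.8 and 44.3 in null cells. All null values were below the lowest of the others. The difference was -0.67 (SE 0.16, adjusted p = 0.0103).

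The other 5 small-subunit genes that fell against wild type were Mrps27 (-0.62), Mrps21 (-0.47), Mrps17 (-0.45), Mrps33 (-0.42) and Mrps10 (-0.40), with adjusted p from 0.0113 to 0.0334. Mrps27 encodes a pentatricopeptide-repeat protein and was among the dimmest of the genes, with a mean signal of 39.3. In all, 9 of 26 small-subunit genes were lower (34.6%, against 8.09% of all tested genes). The median log2 difference over the 26 was -0.24.

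**Figure D2:**
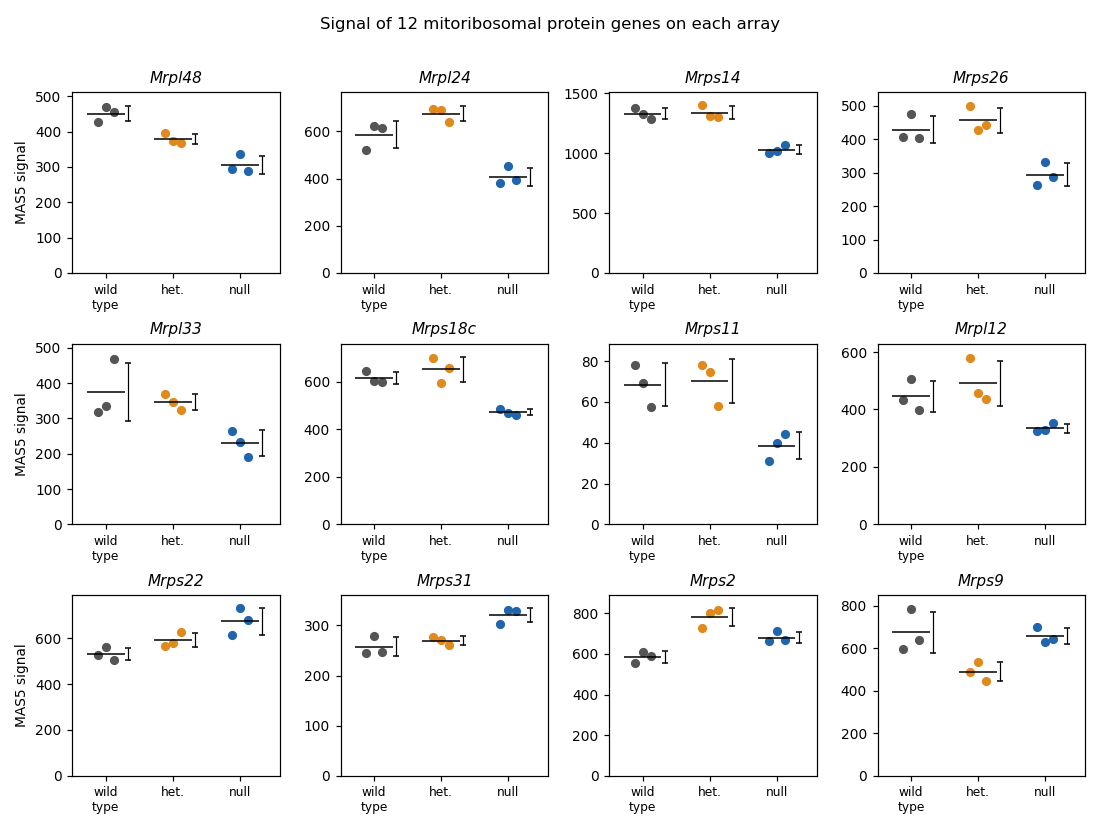
MAS5 signal (vertical axis, linear, from 0) of 12 of the genes on each array, by Dicer1 genotype; points are single arrays, horizontal lines group means and bars ± 1 SD (n = 3). Null points lie below the other genotypes for Mrpl48, Mrpl24, Mrps14, Mrps26, Mrpl33, Mrps18c, Mrps11 and Mrpl12, above them for Mrps31, and heterozygous points lie apart for Mrps2 (high) and Mrps9 (low).

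The only 2 members that rose in null against wild-type cells were both small-subunit genes without a bacterial counterpart. Mrps22, in which human mutations cause mitochondrial disease, read 526, 561 and 506 in wild-type cells, 568, 581 and 628 in heterozygous cells and 614, 730 and 679 in null cells. Wild-type values were lowest, and heterozygous and null values overlapped. The difference was 0.34 (SE 0.09, adjusted p = 0.0179), and between null and heterozygous 0.18 (adjusted p = 0.191).

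Mrps31 read 246, 279 and 248 in wild-type cells, 278, 271 and 260 in heterozygous cells and 304, 330 and 328 in null cells. The null arrays lay above all 6 others. The difference was 0.31 (SE 0.09, adjusted p = 0.0343) against wild type and 0.24 (adjusted p = 0.0945) against heterozygous cells.

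Members with a bacterial counterpart and those without were close in the large subunit. There 7 of 29 (24.1%) and 3 of 20 (15%) fell, with medians of -0.21 and -0.14. In the small subunit 6 of 16 with a counterpart fell (37.5%, median -0.26). Of the 10 without, 3 fell (30%) and 2 rose (20%), with a median of -0.14. Of all tested genes 8.09% were called lower and 7.6% higher. These classes were not tested against each other.

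Several genes of described function did not pass. Mrpl44, which has a ribonuclease III-like fold and was among the brightest of these probe sets, read 1845, 1729 and 1705 in wild-type cells, 1743, 1785 and 1725 in heterozygous cells and 1717, 1907 and 1772 in null cells. The 3 genotypes overlapped, with a difference of 0.03 (SE 0.07, adjusted p = 0.823) between null and wild type. Its probe sets disagreed: of 3 dimmer ones, 1 was called lower (-0.59, adjusted p = 0.025), and the others gave -0.25 (0.0888) and 0.13 (0.264). Mrps12, the counterpart of a bacterial protein at the decoding centre, gave -0.26 (adjusted p = 0.177) against wild type and fell against heterozygous cells (-0.42, adjusted p = 0.037). Mrps30, a large-subunit protein in structures despite its name, gave 0.03 (adjusted p = 0.895). Mrps36, now described as a component of the 2-oxoglutarate dehydrogenase complex and counted in neither subunit, gave -0.25 (adjusted p = 0.211). The other bright probe sets were those of Mrpl39 (0.13, adjusted p = 0.232) and Mrpl51 (-0.14, adjusted p = 0.335), and the other dim ones those of Mrpl14 (-0.51, SE 0.24, adjusted p = 0.18), Mrpl37 (-0.22, adjusted p = 0.394) and Mrpl38 (-0.02, adjusted p = 0.959). Of the dimmer probe sets of Mrpl38, 1 gave -0.58 and was called (adjusted p = 0.0256).

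How many genes were called depended on single arrays. Without wild-type replicate 2, the array of opposite Xist and Eif2s3y signals, 12 genes were lower (15.8%, against 5.60% of all tested genes) and 2 higher (2.63%, against 6.11%), and Mrpl12, Mrpl21, Mrpl23, Mrpl4, Mrpl42, Mrps17 and Mrps27 lost their call (adjusted p 0.051 to 0.126). Without null replicate 3, 11 were lower and 0 higher, and Mrpl12, Mrpl20, Mrpl21, Mrpl23, Mrpl4, Mrpl42, Mrps17, Mrps22, Mrps31 and Mrps33 lost theirs (0.0512 to 0.127). Calls over all tested genes, in both directions, fell from 1937 to 1258 in that fit. Mrpl12, Mrpl21, Mrpl42, Mrps10, Mrps21 and Mrps31 were lost without wild-type replicate 1 (0.06 to 0.123), and Mrpl21, Mrps17, Mrps21, Mrps22, Mrps27 and Mrps31 without wild-type replicate 3 (0.0604 to 0.105). Mrpl12, Mrpl21, Mrpl42 and Mrps18a were lost without null replicate 1 (0.055 to 0.109), and Mrpl12, Mrps21, Mrps22, Mrps27 and Mrps31 without null replicate 2 (0.0692 to 0.121). Leaving out heterozygous replicate 2 from the shared fit cost Mrpl42 and Mrps31 their call (0.0511 and 0.0519). The 7 genes Mrpl24, Mrpl33, Mrpl48, Mrps11, Mrps14, Mrps18c and Mrps26 stayed called whichever array was left out. With the mean of all probe sets of a gene in place of the brightest, 12 genes were lower and 1 higher, and Mrpl21, Mrpl33, Mrpl42, Mrps10, Mrps11, Mrps14, Mrps21, Mrps26 and Mrps31 lost their call (0.0559 to 0.545). With 1 array left out the median difference over the 76 genes stayed between -0.24 and -0.16.

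In heterozygous cells, which keep a wild-type copy of Dicer1, no mitoribosomal protein gene was called lower than in wild-type cells. Of the 76 genes, 1 rose (1.32%) and 0 fell in heterozygous against wild-type cells, against 0.697% of all tested genes higher and 0.697% lower. At an unadjusted p under 0.05, 6 were higher and 2 lower (10.5% in all, against 12.9% of all tested genes). The log2 difference was positive for 52 genes and negative for 24, with a median of 0.08 (-0.01 over all genes tested) that fell to 0.01 when heterozygous replicate 1 was left out. Leaving out wild-type replicate 2 instead gave 0.12. For 12 genes (15.8%) all 3 heterozygous values lay above all 3 wild-type values, against 8.48% of all tested genes. The large subunit had a median of 0.10 and the small subunit 0.07.

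The gene that rose was Mrps2, the counterpart of a protein of the bacterial small subunit. It read 556, 612 and 590 in wild-type cells, 730, 799 and 815 in heterozygous cells and 663, 711 and 666 in null cells. The 3 genotypes did not overlap, and the heterozygous arrays were highest. The difference between heterozygous and wild type was 0.41 (SE 0.08, adjusted p = 0.0176), while null against wild type gave 0.21 (adjusted p = 0.0877). The call was lost without wild-type replicate 1 (adjusted p = 0.0808), wild-type replicate 3 (0.052), heterozygous replicate 2 (0.105) or heterozygous replicate 3 (0.1). It was also lost without the intensity trend (0.118) and with the mean of both probe sets (0.476).

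Mrps9, another small-subunit protein with a bacterial counterpart, went the other way. It read 598, 785 and 638 in wild-type cells, 486, 534 and 446 in heterozygous cells and 699, 628 and 641 in null cells. Heterozygous arrays lay below all others, while wild-type and null arrays overlapped. Heterozygous against wild type gave -0.45 (SE 0.11, adjusted p = 0.0528), which did not pass, and null against heterozygous 0.42 (SE 0.11, adjusted p = 0.0165), which did. The latter call was lost without heterozygous replicate 1, heterozygous replicate 3 or null replicate 1. The other 3 probe sets of Mrps9 were dimmer, and none of them was called in either of these comparisons.

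The next genes by unadjusted p in heterozygous against wild-type cells, Mrpl43 (0.38, adjusted p = 0.118), Mrpl40 (0.30, 0.15), Mrpl48 (-0.24, 0.249), Mrps28 (0.25, 0.326) and Mrpl27 (0.23, 0.357), did not pass. Mrpl43, Mrpl40 and Mrps28 were above wild type on every heterozygous array, and Mrpl48 was below it on each.

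Set directly against heterozygous cells, null cells had lower signals for more of the genes. Of the 76, 32 fell (42.1%, against 7.49% of all tested genes) and 1 rose (Mrps9, 1.32%, against 6.84%). The log2 difference was negative for 69 genes, with a median of -0.31 (-0.03 over all genes tested), which is a fall of 19.5% in signal at the median. It ranged from -0.71 to 0.42. Among the 2136 tested genes with levels between the members' quartiles, 12.4% were lower and 12.9% higher. All 3 null values lay below all 3 heterozygous values for 47 of the 76 members (61.8%), against 18% of all tested genes. The large subunit had 22 of 49 lower (median -0.31), and the small subunit 10 of 26 lower and 1 higher (median -0.33). This comparison shares its null arrays with the one against wild type and is no independent repeat of it.

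Some genes passed against heterozygous but not against wild-type cells. Mrpl36, the counterpart of a very small bacterial large-subunit protein, read 150, 159 and 160 in wild-type cells, 190, 188 and 184 in heterozygous cells and 105, 138 and 127 in null cells. The genotypes did not overlap, with heterozygous arrays highest. Null against heterozygous gave -0.57 (SE 0.11, adjusted p = 0.00382) and null against wild type -0.32 (adjusted p = 0.0626), while heterozygous against wild type, the difference between these, was 0.25 (adjusted p = 0.359). Mrpl54, without a bacterial counterpart, read 67.3, 65.7 and 74.9 in wild-type cells, 99.8, 78.6 and 74.6 in heterozygous cells and 47.3, 54.3 and 48.4 in null cells. Null arrays were lowest, and the difference from heterozygous arrays was -0.63 (SE 0.14, adjusted p = 0.00695). Of the 24 members with the smallest p, the others called in this comparison and not against wild type were Mrpl43 (-0.45), Mrpl27 (-0.42), Mrpl41 (-0.39), Mrps28 (-0.39), Mrpl47 (-0.37), Mrpl40 (-0.36) and Mrpl28 (-0.35), with adjusted p from 0.0127 to 0.0231. Mrpl27 is the counterpart of a bacterial protein that reaches into the peptidyl transferase centre.

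Of the genes already described against wild type, Mrps26 (-0.62), Mrps11 (-0.71), Mrpl33 (-0.58), Mrps18a (-0.55), Mrpl23 (-0.54), Mrps18c (-0.45), Mrps10 (-0.44), Mrpl20 (-0.43), Mrpl4 (-0.40), Mrps14 (-0.37), Mrps33 (-0.37) and Mrpl42 (-0.33) also fell against heterozygous cells, as did Mrpl21 (-0.47), Mrps17 (-0.39) and Mrpl48 (-0.30). Their adjusted p ranged from 0.00182 to 0.0483. With Mrpl24 and Mrpl12, 17 genes were lower in both comparisons.

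This count too rested on single arrays. Without heterozygous replicate 1, 10 of the 32 were lower. Without null replicate 3, 13 were lower, without null replicate 1, 15, and without heterozygous replicate 2, 21. The calls lost without heterozygous replicate 1 included Mrpl4, Mrpl20, Mrpl27, Mrpl28, Mrpl33, Mrpl40, Mrpl41, Mrpl42, Mrpl43, Mrpl47, Mrps12, Mrps18a, Mrps28 and Mrps33 (adjusted p 0.0535 to 0.156 over all 23 lost, Mrps9 among them). Without null replicate 3, Mrpl20, Mrpl27, Mrpl33, Mrpl4, Mrpl40, Mrpl41, Mrpl42, Mrpl43, Mrpl47, Mrps12 and Mrps33 were among the 19 lost (0.0536 to 0.197), and without null replicate 1, Mrpl27, Mrpl4, Mrpl40, Mrpl41, Mrpl42, Mrpl43, Mrpl47, Mrps12, Mrps28 and Mrps9 among 18 (0.0501 to 0.129). Mrpl4, Mrpl41, Mrpl42 and Mrps33 were among the 11 lost without heterozygous replicate 2 (0.0526 to 0.142), Mrps9 was lost without heterozygous replicate 3, and Mrps12 without null replicate 2. The 10 genes Mrpl12, Mrpl23, Mrpl24, Mrpl36, Mrpl54, Mrps10, Mrps11, Mrps14, Mrps18c and Mrps26 stayed called whichever array was left out. The mean of all probe sets left 20 lower and lost 13 calls (0.0689 to 0.977), among them Mrpl28, Mrpl33, Mrpl41, Mrpl42, Mrpl47, Mrpl54, Mrps10, Mrps11 and Mrps9, and a fit without the intensity trend left 14. Without wild-type replicate 2, which enters only the shared estimate of spread, each of the 33 calls held.

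Ordered by genotype means, the null group was lowest for 62 of the 76 genes (81.6%, against 43.4% of all tested genes) and the heterozygous group highest for 50 (65.8%, against 31.8%). Wild type was highest for 23 and null for 3. With wild-type replicate 2 left out of its mean, the null group was lowest for 57 (75%, against 42.2%) and the heterozygous group highest for 55 (72.4%, against 32.3%). The median deviation of the 76 genes from their own 9-array means was -0.01, 0.13 and 0.02 on the wild-type arrays, 0.26, 0.10 and 0.03 on the heterozygous arrays and -0.20, -0.08 and -0.18 on the null arrays. Heterozygous replicate 1 stood highest and the 3 null arrays lowest, while heterozygous replicates 2 and 3 lay within the range of the wild-type arrays. The upper end of that range was wild-type replicate 2, and heterozygous replicates 2 and 3 lay above the other wild-type arrays. On the null arrays 8, 20 and 10 of the 76 genes were above their own mean, and on the other arrays 37 to 67 were. Summed signals of the 76 probe sets were 36768 ± 2135 (SD, n = 3) for wild-type arrays, 38498 ± 2155 for heterozygous arrays and 33376 ± 1494 for null arrays. The wild-type arrays other than replicate 2 summed to 35501 and 35570, and heterozygous replicates 1, 2 and 3 to 40885, 37912 and 36697.

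Some measures of RNA and array quality also differed between the genotypes, not all in the same order. The ratio of the 3′ to the 5′ control probe set of Gapdh, which rises when labelled RNA is short, was 6.56 to 7.44 on wild-type, 6.00 to 6.33 on heterozygous and 7.11 to 7.72 on null arrays. Wild-type and null ranges overlapped. The order of the means, heterozygous lowest and null highest, is the reverse of the order of the mitoribosomal genes. The same ratio for beta-actin was 7.20 to 10.1, 7.48 to 8.45 and 7.28 to 8.25, which overlapped between all 3. Its means were 8.87 on wild-type, 7.80 on heterozygous and 7.73 on null arrays, so null was lowest here and the order differed from that of Gapdh. The 18S rRNA control probe set at the 5′ end gave 1314 ± 544, 2746 ± 331 and 1553 ± 252 (SD, n = 3) in that order of genotypes, wild type first. The part of these measures in the results was not tested. The neutrophil markers Ltf and Ngp were lower in null and in heterozygous than in wild-type cells. The remaining one, Camp, read 150, 370 and 143 in wild-type cells, 99.9, 60.9 and 116 in heterozygous cells and 327, 72.4 and 121 in null cells and was not called, with -0.45 (adjusted p = 0.538) for null against wild type and 0.62 (adjusted p = 0.375) for null against heterozygous. Wild-type replicate 2 was highest for all 3, and the part of such cells in the wild-type values was not tested either.

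**Figure D3:**
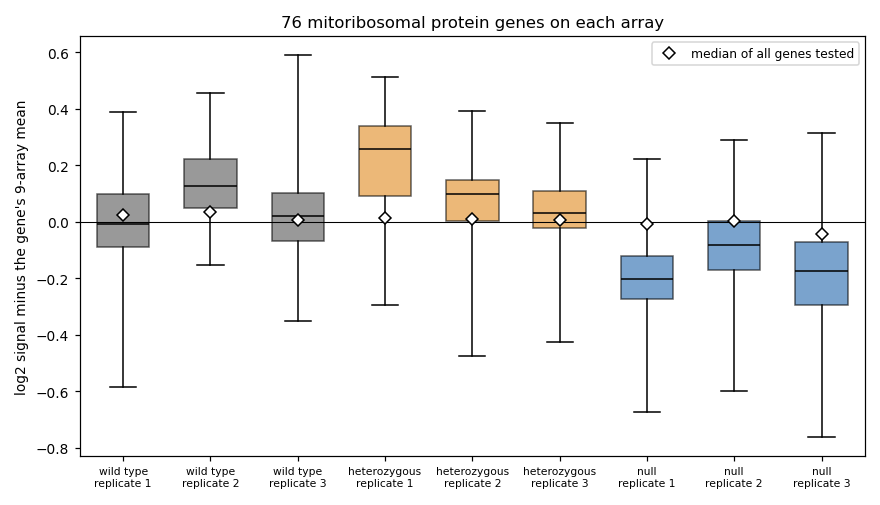
Log2 signal of the 76 genes minus each gene's own mean over 9 arrays (vertical axis), by array; boxes span the quartiles with the median as a line, whiskers reach the lowest and highest gene, and diamonds mark the median of all genes tested. Boxes of null arrays lie lowest (medians -0.20, -0.08 and -0.18), heterozygous replicate 1 lies highest (0.26), and the diamonds stay near 0.

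Of the 76 genes, 34 had 1 probe set and 42 several. Among the 21 genes called in null against wild type, 6 had other tested probe sets, 9 in all, of which 6 had the same sign and 3 the opposite. Of these 9, 1 was called, with the same sign. The 3 of opposite sign were dim, with mean signals of 14.7 (Mrpl33), 12.7 (Mrpl21) and 18.2 (Mrps21) and differences of 0.02, 0.09 and 0.01. Most of those of the same sign were dim too, at 10.3 (Mrps31), 21.5 (Mrpl48), 21.7 (Mrps14) and 27.5 (Mrpl21). A brighter one of Mrps14, at 272, had the same sign only at -0.004. Among the 33 called in null against heterozygous, 12 had 20 other probe sets, of which 15 had the same sign and 5 the opposite. Of these 20, 2 were called, both with the same sign. The opposite one of Mrpl28 was bright, with a mean signal of 314 and a difference of 0.23. Those of Mrpl17, Mrpl33, Mrpl47 and Mrps9 were dimmer, from 12.1 to 41.3. Of the 55 genes not called against wild type, 31 had 62 other tested probe sets, of which 4 were called lower (1 each of Mrpl38, Mrpl44, Mrpl9 and Mrps9) and 0 higher. Across the 76 genes the log2 level and the null against wild-type difference correlated at 0.42, a description across genes that share arrays, with dim genes also held closer to 0 by the pseudocount.

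Genes that work with the mitochondrial ribosome were examined in lists made from general knowledge. Mitoribosomal proteins under other symbols numbered 4, of which 2 fell in null against wild type, Gadd45gip1 (-0.66, adjusted p = 0.0262) and Chchd1 (-0.34, adjusted p = 0.0408), while Dap3, a GTP-binding protein of the small subunit, gave 0.03 (adjusted p = 0.862) and Ptcd3 -0.03 (adjusted p = 0.915). The list's median was -0.19. Shares of the lists below are to be read against 8.09% of all tested genes lower and 7.6% higher.

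Of 15 mitochondrial translation factors, 2 fell (13.3%) and 1 rose (6.67%), with a median of -0.12. Slirp, which stabilises mitochondrial messenger RNAs together with Lrpprc, read 986, 945 and 975 in wild-type cells, 1143, 915 and 906 in heterozygous cells and 580, 645 and 548 in null cells. The null arrays lay far below the overlapping other groups, with a difference of -0.70 (SE 0.10, adjusted p = 0.000296) from wild type. Metap1d, a mitochondrial methionine aminopeptidase, fell by 0.82 on the log2 scale (adjusted p = 0.00191), and Tufm, the mitochondrial elongation factor Tu, rose (0.32, adjusted p = 0.0435).

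Of 20 mitochondrial aminoacyl-tRNA synthetases tested (Aars2 was below the filter), 3 fell (15%) and 0 rose, with a median of -0.12. Lars2, the leucyl-tRNA synthetase of mitochondria, read 233, 296 and 201 in wild-type cells, 191, 228 and 216 in heterozygous cells and 86.5, 91.2 and 91.7 in null cells. Every null value was below every other value, and the difference from wild type was -1.31 (SE 0.13, adjusted p = 1.7e-05). Ears2 (-0.78, adjusted p = 0.0102) and Hars2 (-0.49, adjusted p = 0.0402), the glutamyl and histidyl enzymes, were the others.

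Of 27 assembly and rRNA modification factors, 5 fell (18.5%) and 1 rose (3.70%, median -0.11). Rpusd4, a pseudouridine synthase, gave -0.39 (adjusted p = 0.0161), Mettl17 -0.40 (0.0228) and the GTPase Mtg1 -0.39 (0.0306), and the methyltransferase Trmt61b rose (0.37, 0.0355). The other 2 that fell, named after their values were seen, were Mrm1 (-0.45, 0.0452) and Rbfa (-0.26, 0.0496). Of 18 genes of mitochondrial DNA transcription and replication, 4 fell (22.2%) and 0 rose (median -0.12), the exonuclease Mgme1 (-0.59, adjusted p = 0.01), the helicase Twnk (-0.46, 0.0144), the topoisomerase Top1mt (-0.52, 0.02) and Prorp, the nuclease subunit of mitochondrial RNase P (-0.48, 0.0372). Of 12 regulators of nuclear-encoded mitochondrial genes, 2 rose (16.7%) and 0 fell (median 0.05), Nfe2l2, a factor of the oxidative stress response (0.48, 0.000713), and Gabpa, the DNA-binding subunit of GABP (0.34, 0.0371), while Nrf1 gave -0.20 (0.403) and was not called.

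Calls in these lists held to different degrees. Slirp, Metap1d, Ears2, Lars2 and Nfe2l2 were called whichever array was left out. Mgme1 was lost without wild-type replicate 3 (adjusted p = 0.0506), Twnk without wild-type replicate 3 or null replicate 1 (up to 0.0603) and Rpusd4 without wild-type replicate 3 or null replicate 3 (up to 0.066). Without wild-type replicate 2, Gadd45gip1, Chchd1, Hars2, Mettl17, Mtg1, Mrm1, Rbfa, Trmt61b, Top1mt, Prorp and Gabpa lost their call (adjusted p 0.0545 to 0.148). Tufm was lost without any of 6 arrays, null replicate 3 among them, and each of these 12 genes was lost without at least 3 arrays (adjusted p up to 0.169). Mrm1 and Rbfa were each lost without any of 7. With 1 array left out, the genes lower thus numbered 0 to 4 among the assembly factors, where none was left without null replicate 3 and 1 without wild-type replicate 2, and 1 to 4 among the genes of mitochondrial DNA transcription and replication, with 1 left without wild-type replicate 3 or null replicate 1. Cyclic loess normalization left 2 of the assembly factors lower. Without wild-type replicate 2 the 6 lists had 0, 2, 2, 1, 2 and 0 genes lower (0, 13.3, 10, 3.70, 11.1 and 0%, against 5.60% of all tested genes). They had 0, 1, 0, 0, 0 and 1 higher (0, 6.67, 0, 0, 0 and 8.33%, against 6.11%). With the mean of all probe sets in place of the brightest, Metap1d (adjusted p = 0.125), Ears2 (0.706), Lars2 (0.134), Nfe2l2 (0.852), Gadd45gip1 (0.723), Chchd1 (0.0544), Tufm (0.672), Mgme1 (0.0516) and Gabpa (0.0671) were not called. In null against heterozygous cells the 6 lists, in the order above, had 1, 1, 1, 6, 2 and 0 genes lower (25, 6.67, 5, 22.2, 11.1 and 0%, against 7.49% of all tested genes). There 2 were higher, both among the regulators (16.7%, against 6.84%). No gene of these lists was called by limma in heterozygous against wild-type cells. There 0, 3, 2, 4, 2 and 0 had an unadjusted p under 0.05 (0, 20, 10, 14.8, 11.1 and 0%, against 12.9% of all tested genes).

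**Figure D4:**
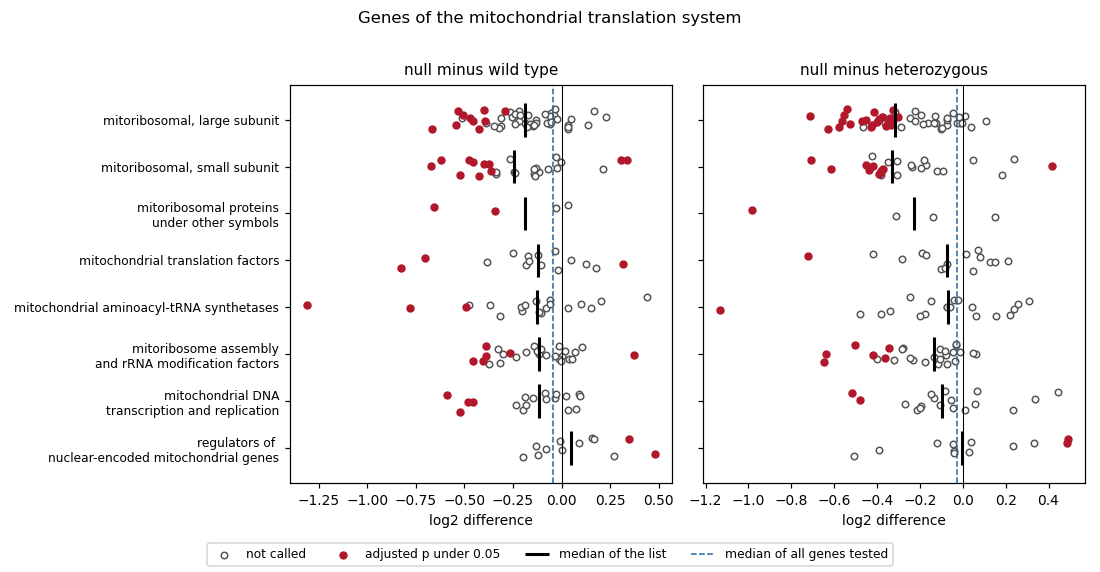
Log2 difference (horizontal axis) of each gene in the mitoribosomal groups and the 6 related lists, in null against wild type (left) and null against heterozygous (right); filled points passed an adjusted p of 0.05, black bars mark each list's median and the dashed line the median of all genes tested. The medians of both subunits lie at -0.19 and -0.24 on the left, those of the regulators near 0, and Lars2 is the leftmost point at -1.31.

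Many genes of other large nuclear-encoded families were also called lower in null cells, though most of their members did not pass. Of 47 cytosolic ribosomal protein genes, 15 fell (31.9%, against 8.09% of all tested genes) and 0 rose in null against wild type (median -0.20), and 15 fell against heterozygous cells (31.9%, against 7.49%, median -0.23). Of 76 oxidative phosphorylation subunit genes, 24 fell (31.6%) and 1 rose against wild type (median -0.23), and 28 fell against heterozygous cells (36.8%, median -0.24). Without wild-type replicate 2, 12 and 14 genes of these families were lower than in wild-type cells (25.5% and 18.4%, against 5.60% of all tested genes). In each family 1 gene was higher (2.13% and 1.32%, against 6.11%), and the medians were -0.22 in both. In heterozygous against wild type their medians were 0.03 and 0.02, with 0 calls in either. There 2 and 8 genes had an unadjusted p under 0.05 (4.26% and 10.5%, against 12.9% of all tested genes). No difference between these families and the mitoribosomal genes was tested.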

How the data were processed

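RNA of 9 sorted GMP samples (3 per Dicer1 genotype) was labelled with biotin and hybridised to 1 Affymetrix array each. The authors deposited MAS5 signal intensity values per probe set, per the submitters' processing notes, and the version and settings are not given in the sources used here. The deposited intensity values had a 2% trimmed mean of 100 on every array and medians of 12.4 to 16.1. Detection calls were not used here. With 3 arrays per genotype, array number sets the precision. Of 45101 probe sets, 64 were controls, 34945 had 1 symbol and 932 several. The Entrez identifiers of 34741 matched the GRCm38.p6 RefSeq table.

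Signals were analysed as log2(signal + 12), so fold changes of dim genes are understated. The brightest probe set stood for each of 18193 genes, and 12347 with a mean at or above the 40th percentile of probe-set means (a signal of 8.49) were tested. limma 3.58.1 in R 4.3.3 (lmFit, eBayes with intensity trend) was fitted to all 9 arrays and 3 groups, two-sided, with Benjamini-Hochberg adjustment over all genes tested and calls under 0.05. SE is that of this fit. On simulated data with 200 of 12347 genes changed, the fit called 73% of 2-fold and 44% of 1.5-fold changes, with 0 false calls. Smaller changes, such as most of those described here, were not simulated. Exact permutation of 3 against 3 arrays cannot give a p under 0.1.

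The members and lists were chosen with earlier results of these data known, so no list was tested. Named were members called in each comparison (up to 24 by p), the next by p where fewer than 6 were called, the 4 brightest and 4 dimmest, 6 with described roles, and from each list the called genes with the 4 smallest p. Alternatives changed the pseudocount, filter, normalization, variance prior, groups fitted, array weights, probe-set summary and replicate block, and left out each array. Overlaps, orders of means and counts in other gene families without wild-type replicate 2 were added after the data were seen. Promoters came from RefSeq on GRCm38.p6.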

Additional observations from a re-analysis of the deposited data

How the results depend on the processing

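There were 20 alternatives, 9 of them leaving out 1 array. Under all of them the median differences of the 76 genes moved by less than the spread between arrays (SD 0.0861). Little follows from this. Changes of the filter, intensity trend, groups fitted or replicate block left the medians unchanged, as they do not alter a gene's difference. The same holds for leaving out an array of the group not compared. Leaving out an array of a compared group moves its mean by only part of that group's spread, so a move beyond 0.0861 was hardly possible. The median in heterozygous against wild type, 0.0797, was itself smaller than 0.0861, so this measure could not show its loss. Leaving out 1 array gave medians of -0.24 to -0.16 in null against wild type, 0.01 to 0.12 in heterozygous against wild type and -0.35 to -0.26 in null against heterozygous, and quantile normalization gave -0.21, 0.08 and -0.30. Counts moved more. In null against wild type, genes higher numbered 0 without the intensity trend, 1 with only the 2 groups compared, 1 with the mean of all probe sets and 0 to 2 with 1 array left out, and genes lower 12 with the mean of all probe sets and 11 to 20 with 1 array left out. Calls over all genes numbered 1937, 1290 without the trend and 1258 to 1938 with 1 array left out. In heterozygous against wild type, genes higher numbered 0 without the trend, 0 with the mean of probe sets and 0 to 1 with 1 array left out. Genes lower numbered 1 with the filter at the 60th percentile, 1 with the replicate block (Mrps9 in both) and 0 to 1 with 1 array left out. Calls over all genes numbered 172, 112 without a filter, 83 without the trend, 86 with the mean of probe sets and 99 to 169 with 1 array left out. In null against heterozygous, genes higher numbered 0 without the trend, 0 with the mean of probe sets and 0 to 1 with 1 array left out, and genes lower 14 without the trend, 20 with the mean of probe sets and 10 to 33 with 1 array left out. Calls over all genes numbered 1770, 1103 without the trend and 1033 to 1897 with 1 array left out. Mrpl47 in null against heterozygous turned from -0.37 to 0.0077 with the mean of all probe sets, where its 2 other probe sets are dim. Other probe sets of the members that lost their call against wild type under this mean were mostly dim too. Their mean signals ran from 4.32 (Mrps26) to 27.5 (Mrpl21), except for 1 of Mrps14 at 272. The cause of the other moves was not tested. Mrpl24, Mrpl48 and Mrps18c kept their call against wild type under every alternative.

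The labels do not say whether replicate numbers pair the arrays. Deviations of same-numbered arrays correlated at 0.00, 0.11 and 0.07 in null against wild type, -0.03, 0.01 and 0.04 in heterozygous against wild type and 0.06, -0.02 and 0.14 in null against heterozygous. Differently numbered arrays gave -0.12 to 0.05, -0.06 to 0.05 and -0.15 to 0.09 in the same order. With the replicate number as a block 22, 2 and 33 of the 76 genes were called in these comparisons, in place of 21, 1 and 33, and all of the latter were among them. Calls over all genes with the block numbered 2111, 201 and 1934, in place of 1937, 172 and 1770. With 3 arrays a group and no detection calls, dim members such as Mrpl14, Mrpl37 and Mrpl38 have wide errors, and a gene that did not pass was not shown to be the same.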
